A study of Mus musculus with 38 samples.

Results

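Tadys cells from tumours of old mice were compared with Tprog cells from tumours of old mice by ATAC-seq. This assay cuts and tags open chromatin with a transposase, so that the number of reads in a peak measures how accessible the site was. The comparison rests on 5 of the 38 samples of the series, 2 Tadys and 3 aged Tprog libraries, and on the 71756 peaks of 73610 whose mean over the 17 libraries of endogenous cells was 10 or more. All cells were CD8+ T cells that had entered a B16-OVA melanoma, a mouse skin tumour line made to express ovalbumin, and were taken on day 15 from wild-type C57BL/6J mice. Tadys, given in the labels as an age-associated dysfunctional state, were sorted as Slamf6- Tim-3-, aged Tprog, or progenitor exhausted cells, as Slamf6+ Tim-3-, and both came from mice aged 64-68 weeks. Aged Tterm, or terminally exhausted cells (Slamf6- Tim-3+, 3 libraries, the same age), and cells of 10-12 week old mice (4 Tprog and 5 Tterm libraries) carried no other allele or agent and serve here as reference points. The design text speaks of 2 or 3 pooled replicates, while young Tprog and Tterm have 4 and 5 libraries, and how these libraries relate to the pools is not given.

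T cells that meet antigen for a long time in a tumour become exhausted. The progenitor state keeps the transcription factor Tcf1, encoded by Tcf7, and renews itself, and the terminal state loses it, gains Tim-3 and other inhibitory receptors and keeps some killing function. Slamf6 is a surface receptor of the SLAM family that marks the progenitor state, and Tim-3, encoded by Havcr2, marks the terminal state, so a cell negative for both falls outside the usual pair. Accessible sites near a gene include its promoter and the distal elements that may act on it, and accessibility is not a measure of transcription.

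The 2 Tadys libraries stood apart from one another. Across the tested peaks the Pearson correlation of their log2 values was 0.863, against 0.902 to 0.939 for pairs of aged Tprog and 0.933 to 0.954 for pairs of aged Tterm. Tadys 2 was closer to the other subsets than to Tadys 1, at 0.878 to 0.911 with aged Tterm and 0.881 to 0.888 with aged Tprog. Tadys 1 correlated at 0.853 to 0.882 with aged Tterm and 0.830 to 0.848 with aged Tprog. The Tadys libraries held 8.51 and 12.1 megareads in peaks, the Tprog libraries 4.64, 27.8 and 22.2 and the Tterm libraries 22.3 to 26.9, so that 1 read counts for 2.00 and 1.52 normalized reads in Tadys and 3.84, 0.673 and 0.831 in Tprog. All 17 libraries carry the same entry, which names sequencing batches 1 and 2 together, and which library belongs to which is not given, so batch and group cannot be told apart. Nothing in the labels ties a library to one animal. The p-values and SEs rest on library-to-library spread, which may be technical. That spread was estimated over all 17 libraries in their 5 groups, and not over the compared libraries alone. Values below are normalized reads per peak, in the order Tadys 1 and 2 and then Tprog 1, 2 and 3, and a log2 difference is that of log2(value + 1). At low peaks its size can be smaller or larger than other estimates, the latter where a library held 0. For instance, it was 2.68 at a Gzmf peak beside 2.94 with edgeR, and -4.62 at an Il6st peak beside -3.70. A peak was called where the Benjamini-Hochberg adjusted p of limma over all tested peaks was under 0.05, and results that rest on 1 library are given without it.

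The promoters of a few genes lay inside called peaks and are printed here because those peaks are among the results that follow. Each window runs from 250 bases before to 50 after a RefSeq start site (GRCm38.p6), 5′ to 3′ on the gene's strand. Capitals mark matches on either strand to 7 motifs: Runx (TGTGGT), AP-1 (TGANTCA), ETS (CCGGAAG), NFAT (TGGAAA), T-box (GGTGTGA), the E-box CAGGTG and the GC box (GGGCGG). The start peaks of Havcr2 (Tim-3), Gzmb (granzyme B) and Cd244a (the receptor 2B4) were more open in Tadys, and those of Eomes and Zeb2, both transcription factors of effector and exhausted cells, were less open.
Havcr2, chr11:46454681-46454980, plus strand: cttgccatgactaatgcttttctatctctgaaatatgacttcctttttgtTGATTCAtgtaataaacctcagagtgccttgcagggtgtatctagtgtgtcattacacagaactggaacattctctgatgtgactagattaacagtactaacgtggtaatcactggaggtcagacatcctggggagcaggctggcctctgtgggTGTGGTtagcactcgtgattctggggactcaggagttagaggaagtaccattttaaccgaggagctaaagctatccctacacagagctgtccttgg
Gzmb, chr14:56262285-56262584, minus strand: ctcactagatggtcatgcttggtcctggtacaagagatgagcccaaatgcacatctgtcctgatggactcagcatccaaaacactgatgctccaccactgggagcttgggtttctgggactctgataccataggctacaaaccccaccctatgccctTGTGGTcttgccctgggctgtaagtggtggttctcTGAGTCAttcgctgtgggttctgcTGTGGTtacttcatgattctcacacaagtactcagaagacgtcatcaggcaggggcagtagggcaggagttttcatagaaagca
Cd244a, chr1:171558943-171559242, plus strand: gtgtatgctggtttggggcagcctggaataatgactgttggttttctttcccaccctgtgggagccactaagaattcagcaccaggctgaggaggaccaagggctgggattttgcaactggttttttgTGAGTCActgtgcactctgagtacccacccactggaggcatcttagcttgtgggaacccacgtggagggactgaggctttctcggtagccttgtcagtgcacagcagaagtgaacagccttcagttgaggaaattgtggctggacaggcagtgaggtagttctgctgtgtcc
Eomes, chr9:118477939-118478238, plus strand: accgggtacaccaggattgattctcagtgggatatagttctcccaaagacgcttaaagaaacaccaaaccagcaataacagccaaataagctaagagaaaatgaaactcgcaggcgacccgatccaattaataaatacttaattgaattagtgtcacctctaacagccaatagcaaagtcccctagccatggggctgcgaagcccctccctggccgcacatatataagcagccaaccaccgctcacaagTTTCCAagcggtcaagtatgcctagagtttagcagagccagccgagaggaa
Zeb2, chr2:45110228-45110527, minus strand: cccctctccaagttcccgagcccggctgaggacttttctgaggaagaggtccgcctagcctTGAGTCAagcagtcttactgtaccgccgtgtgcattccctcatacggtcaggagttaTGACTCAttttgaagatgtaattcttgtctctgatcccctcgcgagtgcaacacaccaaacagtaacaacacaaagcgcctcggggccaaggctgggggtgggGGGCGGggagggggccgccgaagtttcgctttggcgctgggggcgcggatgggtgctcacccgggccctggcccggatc
Counted from the start site, the Havcr2 window holds an AP-1 match at -200 and a Runx match at -46. The Gzmb window holds Runx matches at -93 and -34 and an AP-1 match at -58, and that of Cd244a an AP-1 match at -122. The Zeb2 window, which lost accessibility, holds AP-1 matches too, at -189 and -132, beside a GC box at -29, and of these 7 the Eomes window holds only NFAT, at -1. A match is a run of letters and no measured binding site.

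Tadys cells had lost accessibility at more peaks than they had gained. Of the 71756 peaks, 1871 were higher in Tadys than in aged Tprog (2.61%) and 2902 were lower (4.04%), 4773 in all (6.65%). The median difference over the higher peaks was 1.44 on the log2 scale and over the lower peaks -1.09, beside -0.01 over all peaks tested. Library values of the groups did not overlap at 1851 of the higher and 2851 of the lower peaks, where 34.3% of all tested peaks showed no overlap. The higher peaks lay nearest to 1384 protein-coding genes and the lower to 2075, and 147 genes had both. In bulk cells, fewer cells with an open site and less opening per cell cannot be told apart.

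How many peaks were called depended on the libraries used. Without Tadys 1, 399 peaks were higher and 969 lower, without Tadys 2 the counts were 1673 and 4902, and without Tprog 2 they were 896 and 952. Peaks called in the full fit and again without Tadys 1 and without Tadys 2 numbered 209 higher and 228 lower, and 200 and 223 were called in each of the 5 fits that leave out 1 of the compared libraries. Among them were the peaks named below at Slamf6, Havcr2, Ccr7, Satb1, Cd69, Cxcr4, Jun, Nfatc2, Slamf1, Tox2, Ccl3, Ccl4, Gzmf, Runx3, Id2 and Il18r1. When the fit held Tadys and aged Tprog alone, so that the spread came from 5 libraries, 139 peaks were higher and 259 lower. Of the peaks just listed, those at Ccr7, Cd69, Cxcr4, Jun, Nfatc2 and Ccl3 were called in that fit. Those at Havcr2 (adjusted p = 0.113), Id2 (0.114), Gzmf (0.106), Ccl4 (0.0716) and Il18r1 (0.0626) were not.

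**Figure D1:**
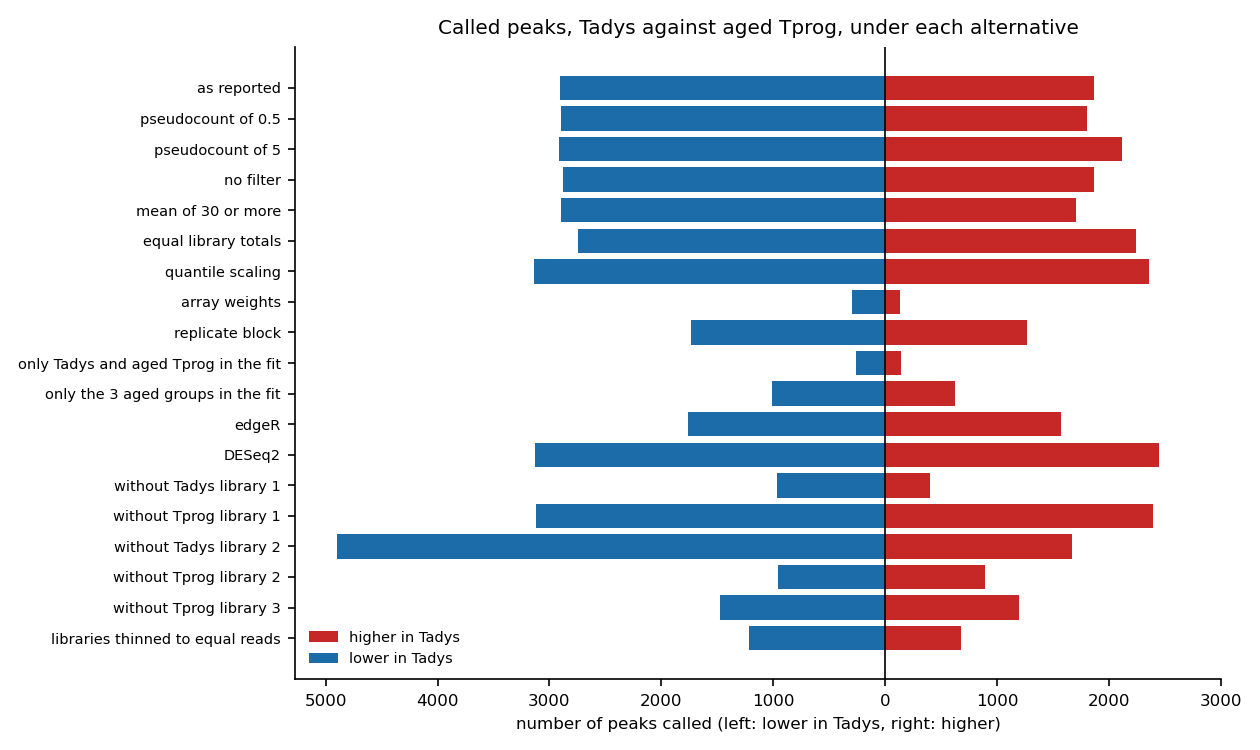
Number of peaks called in Tadys against aged Tprog under each way of running the comparison; bars to the right are peaks higher in Tadys, bars to the left peaks lower. Lower calls outnumber higher calls under every setting drawn, such as 259 against 139 with only the compared groups in the fit and 4902 against 1673 without Tadys library 2.

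The genes of the sorting gate were read first. Slamf6 was less open in Tadys, as its gate requires of the protein: the peak inside the gene at chr1:171920911-171922141 held 102 and 161 in Tadys and 357, 487 and 528 in aged Tprog. Its log2 difference was -1.81 ± 0.28 (SE, adjusted p = 0.000740), and aged Tterm, also sorted as Slamf6-, held 234, 150.5 and 243. In all, 5 of the 8 peaks given to Slamf6 were lower, among them the peak over its start, with 174 and 311 in Tadys and 565, 449.7 and 430.4 in aged Tprog and a difference of -1.03 ± 0.23 (SE, adjusted p = 0.00904), which was not called without Tadys 1 (adjusted p = 0.201). Tim-3 was gated negative in both groups, yet the Havcr2 start peak at chr11:46452527-46456391 held 924 and 947 in Tadys and 561, 601 and 683 in aged Tprog. That difference of 0.61 ± 0.13 (SE, adjusted p = 0.00809) held in all 5 fits that leave out 1 library. Aged Tterm, the Tim-3+ cells, held 1491, 1482 and 1542 there, and the difference of Tadys from them was -0.69 ± 0.13 (SE, adjusted p = 0.00346). The library values of all 3 subsets were thus separate at this promoter, with Tadys in the middle. In a fit of Tadys and aged Tprog alone, the difference between them was not called (adjusted p = 0.113). The genes of the CD8 T cell itself were open in Tadys. The Cd3e start peak held 1044 and 1273 in Tadys and 1129.8, 937 and 1244 in aged Tprog, that of Cd8a held 671 and 893 in Tadys and 838, 757 and 732 in aged Tprog, and neither was called. Cd3d (difference 0.30, adjusted p = 0.165) and the lowest-p Cd3e peak (0.61, adjusted p = 0.108) were not called either. A peak inside Cd8b1 went the other way, with 88.2 and 102 in Tadys and 158, 193 and 163 in aged Tprog. Its difference of -0.84 ± 0.27 (SE) was not called by limma (adjusted p = 0.0564) but was by DESeq2 (adjusted p = 0.0396).

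**Figure D2:**
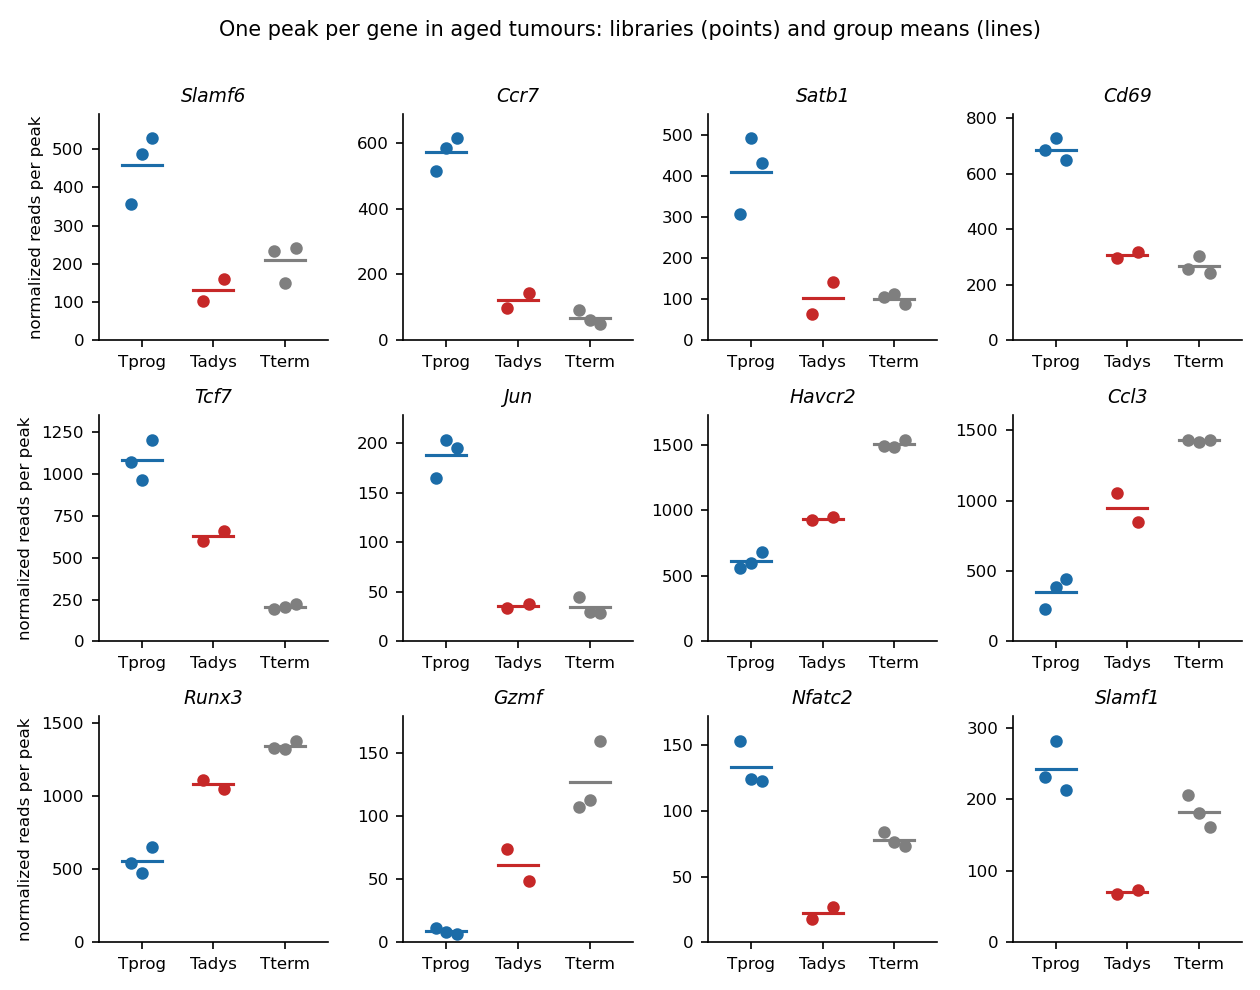
Normalized reads at 1 peak for each of 12 genes in aged Tprog, Tadys and aged Tterm; points are libraries, lines are group means and each vertical axis starts at 0. Tadys points lie below every Tprog point at Slamf6, Ccr7, Satb1, Cd69, Tcf7, Jun, Nfatc2 and Slamf1 and above every Tprog point at Havcr2, Ccl3, Runx3 and Gzmf.

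Several transcription factors that keep T cells in the progenitor or memory state had peaks that were less open in Tadys. Near the 12 genes of that list, 21 of 215 peaks were lower (9.77%, beside 4.04% of all peaks) and 0 higher, with a median difference of -0.35 beside -0.01. The lower peaks lay at Bach2, Eomes, Foxp1, Klf3, Lef1, Myb, Satb1 and Tcf7. Without Tadys 1, 2 were lower (0.930%, below the 1.35% of all peaks in that fit) and the median was -0.23 beside 0.02, so the excess of lower calls rests on Tadys 1. Without Tadys 2, 35 were lower (16.3% beside 6.83%) and 1 higher, with a median of -0.50. Against aged Tterm, 21 of the same 215 peaks were higher in Tadys and 9 lower, where 2.06% and 4.23% of all tested peaks were. With equal library totals and with quantile scaling 19 and 22 peaks were lower than in Tprog, where 2748 and 3139 of all tested peaks were.

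Satb1, a genome organizer of progenitor cells, had the lowest adjusted p among these factors. Its peak at chr17:51879085-51880796, 45795 bp from the start, held 64.1 and 143 in Tadys and 307, 491 and 432 in aged Tprog. The difference of -2.06 ± 0.28 (SE, adjusted p = 0.000202) was called in all 5 fits that leave out a library, and Tterm held 104, 112 and 88.6, within the range of the Tadys libraries. At Tcf7, the peak 6480 bp inside the gene held 601 and 661 in Tadys and 1076, 964 and 1208 in aged Tprog. The difference from Tprog was -0.77 ± 0.19 (SE, adjusted p = 0.0144). Tterm held 195, 206 and 223, and the difference of Tadys from Tterm was 1.60 ± 0.19 (SE, adjusted p = 4.49e-05), so that Tadys lay between the other subsets. The call against Tprog was lost without Tadys 1 (adjusted p = 0.107) and without Tprog 3 (adjusted p = 0.0594). The Tcf7 start peak followed the same order, with 681 and 569.7 in Tadys and 930.0, 818 and 832 in aged Tprog and 269.5, 312 and 307 in Tterm, and was called only against Tterm, with a difference of 1.07 ± 0.19 (SE, adjusted p = 0.00145) and an adjusted p against Tprog of 0.127. Id3, an inhibitor of E proteins active in progenitor cells, resembled it: 615 and 392 in Tadys and 592, 622 and 678 in aged Tprog at its start, not called against Tprog (adjusted p = 0.255), and higher than in Tterm by 1.07 ± 0.19 (SE, adjusted p = 0.00176). Of the 12 Tcf7 peaks, 1 was lower than in Tprog and 5 were higher than in Tterm.

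Lef1, the partner of Tcf1, and Bach2, a repressor of effector genes, fell at elements away from their starts. The Lef1 peak 4618 bp from its start held 174 and 219 in Tadys and 354, 378 and 434 in aged Tprog, a difference of -0.98 ± 0.25 (SE, adjusted p = 0.0200), and that of Bach2 held 16 and 24.3 in Tadys and 80.7, 89.5 and 116 in aged Tprog, a difference of -2.20 ± 0.45 (SE, adjusted p = 0.00526). Neither was called without Tadys 1, where the adjusted p was 0.153 and 0.0639, and the Lef1 peak was not called without Tprog 2 (adjusted p = 0.0527) or Tprog 3 (adjusted p = 0.0673). Foxp1, which keeps T cells quiescent, had 7 lower peaks among 48, the most of any gene on the list. At its lowest-p peak, 463 and 512 in Tadys and 861, 835 and 922 in aged Tprog gave a difference of -0.84 ± 0.18 (SE, adjusted p = 0.00749), with adjusted p = 0.0701 without Tadys 1, and Tterm held 845, 771 and 1126, above Tadys as well.

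The list named for homing and survival receptors of progenitor and memory cells also had less open peaks. It holds genes of other kinds too, such as Xcl1 and the costimulatory receptors Cd28 and Icos. Near the 12 genes of the list 21 of 131 peaks were lower (16%, beside 4.04% of all peaks) and 0 higher, and the median was -0.52. Lower peaks were given to Ccr7, Cd28, Icos, S1pr1 and Xcl1, among others. Without Tadys 1, 2 were lower (1.53% beside 1.35% of all peaks) and the median was -0.27, so this excess of calls rests on Tadys 1 as well. Without Tadys 2, 29 were lower (22.1% beside 6.83%) and the median was -0.67. Taking genes within 10000 bp only, 9 peaks were lower, a count given without its share, so it cannot be set beside that of all peaks.

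Ccr7, the receptor that guides T cells into lymph nodes, had 4 lower peaks of 11. The peak between genes at chr11:99170666-99171753 held 98.2 and 144 in Tadys and 515, 584 and 613 in aged Tprog, 4.71 times as much in Tprog by the group means. The difference was -2.25 ± 0.29 (SE, adjusted p = 9.63e-05), called in every fit that leaves out a library. Tterm held 91.3, 62.8 and 48.9, and its difference from Tadys did not pass the test (adjusted p = 0.0693). S1pr1, the receptor for egress along sphingosine 1-phosphate, had 8 lower peaks of 18, the most of any gene on these lists. Its lowest-p peak held 90.2 and 166 in Tadys and 342, 420.1 and 385 in aged Tprog, a difference of -1.63 ± 0.30 (SE, adjusted p = 0.00230) that was not called without Tadys 1 (adjusted p = 0.0614). The costimulatory receptor Cd28 held 515 and 662 in Tadys and 1091, 905 and 828 in aged Tprog, a difference of -0.68 ± 0.17 (SE, adjusted p = 0.0173), with adjusted p = 0.193 without Tadys 1 and 0.0531 without Tprog 1. Il7r, the receptor for the survival cytokine IL-7, was not called: its start peak held 176 and 163 in Tadys and 288, 259 and 268 in aged Tprog (adjusted p = 0.0669), and the lowest-p peak gave an adjusted p of 0.0504.

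Some genes that hold T cells in tissue lost accessibility as well. Cd69, whose product holds T cells in tissue by opposing the S1pr1 receptor, had 2 lower peaks of 15. Its peak at the gene end held 297 and 318 in Tadys and 684, 727 and 649 in aged Tprog, a difference of -1.16 ± 0.20 (SE, adjusted p = 0.00173), and Tterm lay at 256, 303 and 244. Cxcr4, a chemokine receptor of homing and retention, held 186 and 196 in Tadys and 392, 545 and 385 in aged Tprog, a difference of -1.18 ± 0.24 (SE, adjusted p = 0.00479). Both calls held in all 5 fits that leave out 1 library. Rgs1, a brake on chemokine receptor signalling, held 188 and 287 in Tadys and 492, 491 and 327 in aged Tprog with a difference of -0.88 ± 0.22 (SE, adjusted p = 0.0184). Tterm, with 628, 526 and 538, was higher than Tadys too, and the difference of Tadys from it was -1.27 ± 0.22 (SE, adjusted p = 0.00161). The call against Tprog was not made without Tadys 1 (adjusted p = 0.235) or Tprog 2 (adjusted p = 0.0776). Over the tissue residency list, 3 of 118 peaks were higher and 6 lower, close to the shares among all peaks. Itgae (CD103), with 112 and 119 in Tadys and 65.3, 41.7 and 68.1 in aged Tprog, and Cxcr6, with 469 and 488 in Tadys and 449.6, 509.6 and 365 in aged Tprog at its start, were not called.

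The SLAM family sits in a cluster on chromosome 1. Of its 48 peaks 10 were lower (20.8%) and 2 higher (4.17%), beside 4.04% and 2.61% of all peaks. The gate gene Slamf6 holds 5 of the lower ones, and without it 5 of 40 peaks were lower (12.5% beside 4.04% of all peaks). Tadys lay below both other subsets at the peaks named here of Slamf1 and Cd48. The Slamf1 peak at chr1:171815646-171816469 held 68.1 and 72.9 in Tadys and 231, 282 and 213 in aged Tprog. The difference was -1.75 ± 0.23 (SE, adjusted p = 0.000114). Tterm held 206, 182 and 161, and the difference of Tadys from it was -1.35 ± 0.23 (SE, adjusted p = 0.00121). Slamf7 held 96.2 and 98.8 in Tadys and 215, 234 and 223 in aged Tprog, a difference of -1.19 ± 0.22 (SE, adjusted p = 0.00291), and both calls held in all 5 fits. Cd48, the ligand of 2B4, fell from 34.6, 54.5 and 59.0 in Tprog to 22.0 and 9.12 in Tadys, a difference of -1.69 ± 0.40 (SE, adjusted p = 0.0130) that was not called without Tadys 2 (adjusted p = 0.130). At the Cd48 peak Tterm held 78.4, 62.1 and 69.6, and the difference of Tadys from it was -2.21 ± 0.40 (SE, adjusted p = 0.00197). The gene of the Cd48 receptor, Cd244a, went the other way. The start peak printed above held 385 and 305 in Tadys and 215, 201 and 197 in aged Tprog, a difference of 0.75 ± 0.19 (SE, adjusted p = 0.0188), and 574, 583 and 660.2 in Tterm, above Tadys by a called difference as well (adjusted p = 0.0111). Without Tadys 1 (adjusted p = 0.181), Tprog 2 (adjusted p = 0.0554) or Tprog 3 (adjusted p = 0.0512) the rise over Tprog was not called.

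Cytokines and chemokines of activated CD8 T cells were the list with the largest share of gains. Of 108 peaks near its 11 genes, 11 were higher (10.2%, beside 2.61% of all peaks) and 2 lower, with a median of 0.12, and the higher ones lay at Ccl1, Ccl3, Ccl4, Csf1 and Ifng. The median was 0.35 without Tadys 1 and -0.002 without Tadys 2, beside 0.02 over all peaks in each of these fits, so the gain of the list depends on the Tadys library used. Near genes within 10000 bp 6 peaks were higher and 0 lower, counts given without their shares. Ccl3 and Ccl4 encode the chemokines MIP-1α and MIP-1β, which draw other leukocytes to activated T cells. The Ccl3 peak at chr11:83628513-83630263, 19115 bp from the start, held 1052 and 846 in Tadys and 227, 386 and 442 in aged Tprog. Its difference of 1.48 ± 0.20 (SE, adjusted p = 0.000166) is a 2.70-fold gain by the group means, and Tterm held 1434, 1419 and 1434. The start peak of Ccl3 held 745 and 741 in Tadys and 430.4, 544 and 624 in aged Tprog and was not called (adjusted p = 0.116). Ccl4 had 3 higher peaks of 4, the best with 357 and 334 in Tadys and 119, 207 and 148 in aged Tprog, a difference of 1.16 ± 0.24 (SE, adjusted p = 0.00533), level with the 319, 346 and 282 of Tterm. These Ccl3 and Ccl4 calls held in all 5 fits that leave out a library.

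Ifng, the gene of interferon gamma, gained at 4 of 27 peaks, all away from its start. The lowest-p peak, 41498 bp from the start, held 36.1 and 15.2 in Tadys and 0, 2.02 and 11.6 in aged Tprog, few reads in each Tprog library, and the difference of 2.86 ± 0.71 (SE, adjusted p = 0.0161) was lost without Tadys 1 (adjusted p = 0.159) and without Tprog 1 (adjusted p = 0.0515). The start peak held 952 and 1141 in Tadys and 1076, 1249 and 1134 in aged Tprog and was not called against Tprog (adjusted p = 0.568), while Tterm, with 1506, 1446 and 1469, was higher than Tadys there (adjusted p = 0.0322). Il21 had the 2 lower peaks of the list, the first with 210.4 and 401 in Tadys and 530.3, 704 and 659.6 in aged Tprog and a difference of -1.11 ± 0.24 (SE, adjusted p = 0.00723), with adjusted p = 0.187 without Tadys 1.

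Genes of killing had 3 higher (4.29%) and 4 lower (5.71%) peaks of 70, beside 2.61% and 4.04% of all peaks. Their median was -0.08 with all libraries, 0.14 without Tadys 1 and -0.29 without Tadys 2. Gzmf, a granzyme of terminal cells, gained at its start, where the peak held 74.1 and 48.6 in Tadys and 11.5, 8.08 and 6.65 in aged Tprog, a difference of 2.68 ± 0.44 (SE, adjusted p = 0.00101), and 108, 113 and 159.9 in Tterm. It was called in each of the 5 fits that leave out a library. Prf1, which encodes the pore former perforin, held 146 and 98.8 in Tadys and 30.7, 55.2 and 37.4 in aged Tprog at a peak inside the gene, a difference of 1.57 ± 0.33 (SE, adjusted p = 0.00607), with adjusted p = 0.0891 without Tadys 1, and its start peak, with 1198 and 1340.0 in Tadys and 1038, 1052 and 1080.0 in aged Tprog, was not called (adjusted p = 0.243). Gzmb gained at its start and lost at a distal peak. The start peak held 818 and 700.4 in Tadys and 538, 489 and 577 in aged Tprog, a difference of 0.50 ± 0.15 (SE, adjusted p = 0.0372) that was not called without Tadys 1 (adjusted p = 0.249), Tprog 1 (0.0515), Tprog 2 (0.129) or Tprog 3 (0.0503). The peak 41298 bp away held 32.1 and 16.7 in Tadys and 123, 102 and 125 in aged Tprog a difference of -2.27 ± 0.45 (SE, adjusted p = 0.00415), and was called in all 5 fits. Gzmk, a granzyme of less differentiated cells, held 100.2 and 155 in Tadys and 173, 264 and 253 in aged Tprog at its start, a difference of -0.85 ± 0.26 (SE, adjusted p = 0.0458) that was lost without Tadys 1 (adjusted p = 0.352), Tprog 2 (adjusted p = 0.154) or Tprog 3 (adjusted p = 0.125).

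Transcription factors of exhausted and effector cells had calls at about the shares of all peaks, with 7 of 301 peaks higher (2.33%) and 13 lower (4.32%). Lower peaks lay at 11 of the genes, among them Irf4, Prdm1, Nr4a2, Nr4a3, Tox and Zeb2, and higher peaks at 4, Id2, Runx3, Nfatc1 and Nfatc2, of which the last 2 also had lower ones. Runx3, a driver of the cytotoxic programme, had 3 higher peaks of 30, and the one inside the gene at chr4:135168164-135169936 held 1106 and 1051 in Tadys and 542, 477 and 653 in aged Tprog. The groups did not overlap, the difference was 0.96 ± 0.15 (SE, adjusted p = 0.000693) and Tterm held 1327, 1322 and 1378. Its start peak held 2094 and 2622 in Tadys and 2018, 1720.1 and 2065 in aged Tprog and was not called (adjusted p = 0.242). Id2, an inhibitor of E proteins in effector cells, gained at 2 of 11 peaks. The peak 68191 bp from the start held 487 and 567 in Tadys and 257, 333 and 342 in aged Tprog, a difference of 0.77 ± 0.17 (SE, adjusted p = 0.00809), and the start peak held 1459 and 1266 in Tadys and 1237, 1314 and 1429 in aged Tprog with no call (adjusted p = 0.914). Il18r1, a receptor for the cytokine IL-18, held 479 and 518 in Tadys and 227, 245 and 292 in aged Tprog, a difference of 0.97 ± 0.20 (SE, adjusted p = 0.00607). Cdkn2b, an inhibitor of the cell cycle, held 156 and 126 in Tadys and 34.6, 69.3 and 45.7 in aged Tprog, a difference of 1.53 ± 0.30 (SE, adjusted p = 0.00372). Each of these 4 called peaks was called in all 5 fits that leave out a library. Tbx21 (T-bet), Cx3cr1 and Klrg1, known from effector cells, were not called, with lowest adjusted p of 0.0832, 0.0581 and 0.0644.

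Inhibitory receptors and ectoenzymes had as many gains as losses. Of 106 peaks near 12 genes, 6 were higher and 6 lower (5.66% each), with a median of -0.11. Among all peaks 2.61% were higher and 4.04% lower, so both shares lay above those. With equal library totals 11 were higher and 6 lower (2241 and 2748 among all tested peaks), and with quantile scaling 12 and 7 (2357 and 3139). The median was -0.03 without Tadys 1 and -0.21 without Tadys 2, beside 0.02 over all peaks in each of these fits. Entpd1, the ectoenzyme CD39 of terminal cells, gained at 3 of 12 peaks. The best held 451 and 365 in Tadys and 165, 191 and 226 in aged Tprog, a difference of 1.07 ± 0.20 (SE, adjusted p = 0.00320), with adjusted p = 0.0515 without Tadys 1. Tterm held 487, 535 and 486. Btla, an inhibitory receptor of less differentiated cells, lost at 3 of 11 peaks, the first with 92.2 and 191 in Tadys and 361, 392 and 343 in aged Tprog, a difference of -1.45 ± 0.30 (SE, adjusted p = 0.00515), with adjusted p = 0.135 without Tadys 1. Pdcd1, which encodes PD-1, was open in both groups, with 1849.5 and 2660.2 in Tadys and 2640.1, 2764 and 2337 in aged Tprog at its start and an adjusted p of 0.338. Tterm, with 3655, 3750.4 and 3679, was more open there, and the difference of Tadys from it was -0.74 ± 0.13 (SE, adjusted p = 0.00197). Tox, the factor that sets up exhaustion, was lower at 2 of 49 peaks, the first with 214 and 431 in Tadys and 546, 619 and 569.9 in aged Tprog, a difference of -0.92 ± 0.26 (SE, adjusted p = 0.0325), and not called without Tadys 1 (adjusted p = 0.452), Tprog 2 (0.0981) or Tprog 3 (0.0704).

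At some peaks Tadys lay below both Tprog and Tterm, tested by a contrast of its own with each, which share the Tadys libraries. Against aged Tterm, 1481 of the tested peaks were higher in Tadys (2.06%) and 3037 lower (4.23%), and since both contrasts rest on the same Tadys libraries their overlap is not given. Nfatc2, a transcription factor that acts downstream of T cell receptor signalling, was among them. Its peak at chr2:168578296-168578650 held 18.0 and 27.3 in Tadys and 154, 125 and 123 in aged Tprog, a difference of -2.53 ± 0.33 (SE, adjusted p = 0.000114). Tterm held 84.4, 76.6 and 73.7, and the difference of Tadys from it was -1.77 ± 0.33 (SE, adjusted p = 0.00245). The start peak of Tox2, a relative of Tox, held 429 and 416 in Tadys and 730.2, 923 and 787 in aged Tprog, a difference of -0.94 ± 0.18 (SE, adjusted p = 0.00373), and Tterm held 667, 655 and 818, the difference of Tadys from it being -0.75 ± 0.18 (SE, adjusted p = 0.0151). Both calls against Tprog held in every fit that leaves out 1 library.

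The Eomes and Zeb2 promoters belonged to the same kind. Eomes, a T-box factor of exhausted and memory cells, held 727 and 743 in Tadys and 1257, 1174 and 1184 in aged Tprog at its start, a difference of -0.71 ± 0.16 (SE, adjusted p = 0.0100). Tterm held 1350.2, 976 and 1267, and the difference of Tadys from Tterm was -0.69 ± 0.16 (SE, adjusted p = 0.0120). The Tprog and Tterm values overlapped and both Tadys libraries lay below all 6 of theirs. Zeb2, a repressor that drives terminal differentiation, held 519 and 605 in Tadys and 869, 932 and 931 in aged Tprog at its start, a difference of -0.70 ± 0.17 (SE, adjusted p = 0.0131), and differed from Tterm (930.0, 761 and 772) by -0.54 ± 0.17 (SE, adjusted p = 0.0471). Without Tadys 1 the adjusted p against Tprog was 0.0668 for Eomes and 0.123 for Zeb2. Icos, a costimulatory receptor, held 76.1 and 155 in Tadys and 215, 256 and 326 in aged Tprog and 281, 196 and 422 in Tterm, a difference of -1.26 ± 0.29 (SE, adjusted p = 0.0111) from Tprog and -1.38 ± 0.29 (SE, adjusted p = 0.00596) from Tterm, the first with adjusted p = 0.216 without Tadys 1. The printed windows of Eomes and Zeb2 share none of the 7 motifs.

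Near genes of T cell receptor signalling and of the AP-1 family, which that signalling switches on, lower calls were about as frequent as among all peaks. Near the 20 genes of the first list, 14 of 294 peaks were lower (4.76% beside 4.04%) and 2 higher, with a median of -0.17, and near the 11 AP-1 genes 4 of 72 were lower (5.56%) and 2 higher (2.78%). Jun, a core AP-1 subunit, lost at 3 of 10 peaks, and at the one 44423 bp from its start, 34.1 and 38 in Tadys and 165, 204 and 195 in aged Tprog gave a difference of -2.35 ± 0.37 (SE, adjusted p = 0.000742), and Tterm held 44.8, 29.7 and 28.2. Mafk, a small partner of AP-1-like factors, gained, with 785 and 729 in Tadys and 369, 417 and 489 in aged Tprog, a difference of 0.84 ± 0.17 (SE, adjusted p = 0.00478). Fyn, a kinase of receptor signalling, had 3 lower and 2 higher peaks of 47, the first with 232 and 337 in Tadys and 596, 551 and 616 in aged Tprog, a difference of -1.06 ± 0.23 (SE, adjusted p = 0.00648), with adjusted p = 0.113 without Tadys 1. Cd70, a ligand of the TNF family that costimulates through CD27, held 46.1 and 120.0 in Tadys and 338, 341 and 302 in aged Tprog, a difference of -2.12 ± 0.34 (SE, adjusted p = 0.000922). The Jun, Mafk and Cd70 calls held in all 5 fits that leave out a library. Costimulatory receptors and ligands of the TNF family had 6 lower (9.68%) and 0 higher peaks of 62, with 1 lower (1.61% beside 1.35%) without Tadys 1, and Tnfsf4 (OX40 ligand) was among them, with 184 and 213 in Tadys and 384, 605 and 538 in aged Tprog and a difference of -1.33 ± 0.30 (SE, adjusted p = 0.00902), with adjusted p = 0.0752 without Tadys 1.

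The peaks of largest difference were small peaks away from the genes of these lists. Ephb3, a receptor tyrosine kinase, held 52.1 and 56.2 in Tadys and 0, 4.04 and 3.32 in aged Tprog at a peak inside the gene, which was 26 and 37 reads against 0, 6 and 4 before normalization, and a difference of 4.30 ± 0.71 (SE, adjusted p = 0.00104). Near Snn the values were 56.1 and 45.6 in Tadys and 0, 3.37 and 3.32 in aged Tprog, a difference of 4.28 ± 0.84 (SE, adjusted p = 0.00382). In the other direction, a peak near Il6st, the signalling chain of the IL-6 receptor family, held 0 and 13.7 in Tadys and 61.5, 117 and 112 in aged Tprog, or 0 and 9 reads against 16, 174 and 135, a difference of -4.62 ± 0.62 (SE, adjusted p = 0.000166), and was lower than in Tterm (60.3, 60.0 and 63.0) as well. Mfhas1 held 0 and 7.60 in Tadys and 80.7, 73.4 and 64.0 in aged Tprog, or 0 and 5 reads in Tadys, and a difference of -4.65 ± 0.65 (SE, adjusted p = 0.000220). The calls at Ephb3 and Snn held in each fit without 1 library, and those of the other 8 of the 10 largest gains did not. Rps6ka2, the largest at 4.37 ± 1.07 (SE, adjusted p = 0.0155), was called in 2 of 5 such fits, with adjusted p = 0.105 without Tadys 1, 0.0645 without Tprog 2 and 0.0563 without Tprog 3. Without Tadys 1 none of these 8 was called, at adjusted p from 0.0540 (Acadm) to 0.136 (Nelfcd). All 10 of the largest losses were called in the 5 fits. Of these losses 9 had 0 reads in Tadys 1 and 1 had 0 in Tadys 2, so the size of these differences depends on the pseudocount.

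The losses and gains were then read against the difference between Tterm and Tprog of young mice, whose group means share no library with the comparison. The spread of a peak came from the same 17 libraries for both, so the calls are not independent of each other. In young mice 10261 peaks were more open in Tterm (14.3%) and 8115 more open in Tprog (11.3%). Of the first class, 827 (8.06%) were higher in Tadys than in aged Tprog and 218 (2.12%) lower, with a median difference of 0.12. Among peaks more open in young Tprog, 43 (0.530%) were higher and 892 (11%) lower, with a median of -0.36. The 53380 peaks not called in young mice gave 1001 (1.88%) higher and 1792 (3.36%) lower, with a median of 0.01. So 44.2% of the higher peaks and 30.7% of the lower peaks fell where the young subsets differ in the same direction, and 53.5% and 61.8% where no difference was called. Against aged Tterm the medians had the opposite sign, -0.34 in the first class and 0.44 in the second. Without Tadys 1 the same classes gave 2.31% higher and 0.390% lower, and 0.123% higher and 1.97% lower, and without Tadys 2 they gave 7.93% and 3.26%, and 0.382% and 17.2%.

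**Figure D3:**
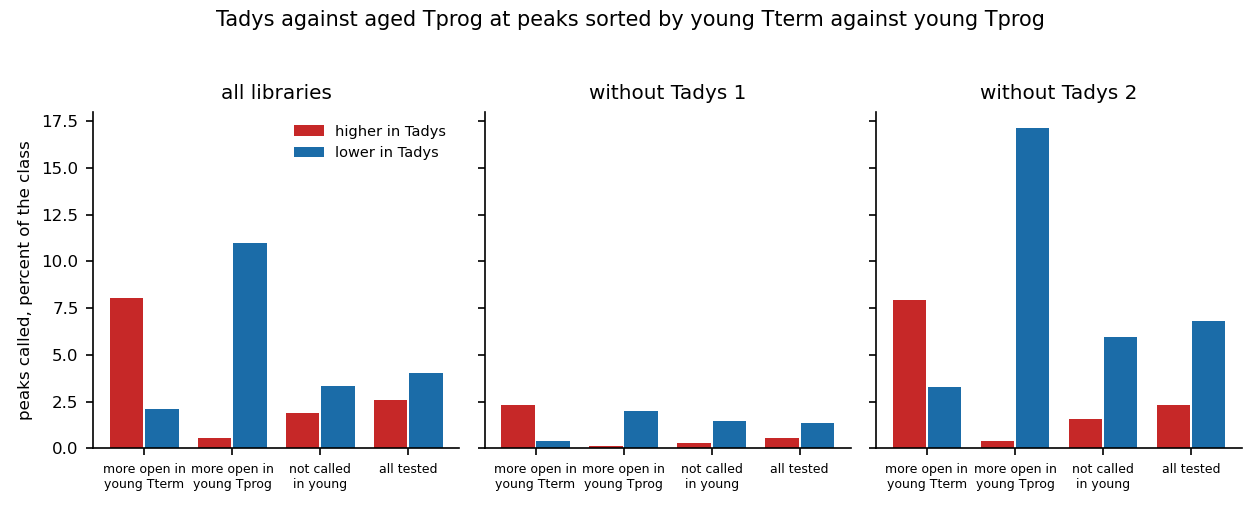
Share of peaks called higher or lower in Tadys than in aged Tprog within classes of peaks set by young Tterm against young Tprog, with all libraries and without each Tadys library. Most peaks of each class are not called, and among those that are, peaks more open in young Tterm have more higher than lower calls (8.06% against 2.12% with all libraries, 2.31% against 0.390% without Tadys 1) and peaks more open in young Tprog more lower than higher calls (11% against 0.530%, and 1.97% against 0.123%).

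Gains were rare at gene starts. Of 10755 tested peaks that hold a RefSeq start site, 99 (0.921%) were higher and 607 (5.64%) lower, beside 1772 (2.90%) and 2295 (3.76%) of the 61001 other peaks. Higher calls were less frequent at start sites in each fit without a Tadys library as well: 0.205% against 0.618% without Tadys 1 and 0.800% against 2.6% without Tadys 2. Lower calls were not more frequent at start sites without Tadys 1, with 1.07% against 1.40%. The lower peaks were wider and stronger than the rest, with a median mean level of 202 normalized reads and width of 1168 bp, against 91.2 and 931 bp over all tested peaks and 98.0 and 1021 bp for the higher peaks.

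The start sites in tested peaks gave 14231 promoter windows of 300 bases, with 123 in higher and 811 in lower peaks, some of them in the same peak. In all, 14 motifs were searched on both strands, the 7 above and CRE (TGACGTCA), TCF/LEF (CATCAAAG), the E-box CAGCTG, IRF and NRF1, YY1 (AAGATGGC) and the CCAAT box (CCAAT). No CRE match is also an AP-1 match. Runx matches stood in 22.0% of windows in higher peaks, 12.5% in lower peaks and 12.9% of all windows. AP-1 matches stood in 11.4%, 3.58% and 5.06%, CRE in 5.69%, 2.22% and 3.18%, and T-box in 5.69%, 2.71% and 3.48%. ETS matches were fewer in higher peaks, with 8.94% against 17% in lower peaks and 17.3% of all. TCF/LEF matches stood in 0 of 123, 11 of 811 (1.36%) and 96 of 14231 (0.675%). NRF1 matches stood in 0%, 1.73% and 2% and YY1 matches in 1.63%, 4.69% and 4.2%. The E-box CAGCTG stood in 21.1%, 13.2% and 14.9%, the E-box CAGGTG in 22%, 16% and 18.4%, and NFAT in 18.7%, 17.1% and 16.3%. GC boxes stood in 56.1%, 62.3% and 64.4%, CCAAT boxes in 30.9%, 36.4% and 37.1%, and IRF in 1.63%, 4.81% and 2.97%. All these shares rest on the calls with all libraries. The median GC content was 59.7%, 61.0% and 61.7%. Windows in higher peaks held fewer CG dinucleotides, with a median of 14 against 21 in lower peaks and 21 in all. Whether this bears on the motif shares was not tested. Lower calls were most frequent in the GC-poorest and the GC-richest of 5 groups of windows ranked by GC content, at 7.53% and 6.97%, with 4.55% to 4.84% in the groups between.

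Lists of markers of other cells that could be in a tumour sort are short, so that few calls make a large share, to be read beside 2.61% higher and 4.04% lower over all peaks. The melanocyte list had 0 of 12 peaks called and a summed level of 2096 to 2247 normalized reads in Tadys, 2143 to 2217 in Tprog and 2147 to 2462 in Tterm. Myeloid markers had 3 higher (6.38%) and 0 lower peaks of 47, with sums of 10381 to 10568 in Tadys, 8727 to 9701 in Tprog and 10926 to 11268 in Tterm. These peaks lay near Cebpb, with 321 and 189.9 in Tadys and 76.9, 115 and 90.6 in aged Tprog at the first of 2, and Itgam (CD11b), with 118 and 38 in Tadys and 23.1, 29.6 and 25.8 in aged Tprog, called at adjusted p = 0.0107 and 0.0463, and neither was called without Tadys 1 (adjusted p = 0.153 and 0.568). Tterm lay above Tprog at both, with 237, 479.7 and 480.5 at Cebpb and 53.4, 56.6 and 54.7 at Itgam. Fibroblast and endothelial markers had 3 higher (8.33%) and 1 lower (2.78%) of 36 and sums of 4406 to 4629 in Tadys and 4170 to 4283 in Tprog, with 5178 to 5512 in Tterm. NK cell markers had 3 higher and 3 lower of 32 (9.38% each), the lower ones all at Eomes and the higher ones at Fcer1g, Klrb1c and Tyrobp, which are also on the list of NK receptors of CD8 T cells, and summed to 7112 to 8690 in Tadys and 8970 to 9456 in Tprog. CD4 and regulatory T cell markers had 0 higher and 4 lower (5.80%) of 69 and summed to 12870 to 14714 against 15491 to 17805. Gamma delta markers had 0 and 3 (8.82%) of 34, with 3456 to 3675 against 3597 to 4468, and B cell markers 1 (2.94%) and 0 of 34, with 3132 to 3440 against 2964 to 3406. The median difference was 0.31 for the fibroblast and endothelial list and 0.29 for the myeloid list, beside -0.01 over all peaks. These medians were 0.26 and 0.18 without Tadys 1 and 0.47 and 0.33 without Tadys 2, beside 0.02 in each fit. Those of the other lists were 0.18 (melanocyte), 0.05 (B cell), -0.06 (NK cell), -0.06 (gamma delta) and -0.33 (CD4 and regulatory). No list was at 0 in a library. The part of other cells in the results was not tested.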

How the data were processed

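ATAC-seq libraries of sorted tumour-infiltrating CD8+ T cells were compared over the peaks of 1 deposited table. Per the submitters' processing notes, the authors used MACS2 2.1.1, DESeq2 1.28.1, Bowtie2 2.2.9, SAMtools 1.3.1 and Picard 2.8.0, with the mm10 build. The shift of reads for the transposase and the way peaks were merged are not given in the sources used here. The deposited values are a signal, reads in a peak divided by a size factor of the library. In every library 100% of the values were whole multiples of the value of 1 read, within a tolerance of 0.001, and those reads were recovered for edgeR and DESeq2.

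Peaks with a mean of 10 or more (97.5%) were fitted as log2(value + 1) with limma 3.58.1 (trend; R 4.3.3) on all 17 libraries in 5 groups, and p-values were adjusted by Benjamini-Hochberg over all tested peaks. The recovered reads were tested with edgeR 4.0.16 (quasi-likelihood) and DESeq2 1.42.0. Peaks took the name of the closest of 21887 protein-coding RefSeq genes, up to 100000 bp away, which need not be their target. Figures were drawn in Python 3.11.15 with matplotlib 3.10.9.

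The text names peaks by a rule: in each direction the 10 of largest difference that did not overlap and averaged at least 30 in the group where they were higher, up to 4 genes per list at their lowest-p peak, and a set of T cell genes at their lowest-p and start peaks. That gave 145 peaks, of which 38 were called higher and 62 lower. The comparison, the genes and the 24 lists (247 genes, 1 of them not matched in the annotation) were chosen with earlier results of these data known. Reads were simulated with 100 peaks changed at each size, all with a mean of at least 30, and no other difference between groups. There limma recovered 33% of 2-fold and 76% of 4-fold changes, and 13.5% of its 126 calls were false. The simulated spread of a peak was the same in every group. These shares are therefore not error rates of the calls reported here. Alternatives are the pseudocount, the filter, the scaling, weights, the groups fitted, the tool, a replicate block and each library left out. Results at a few genes are not reported here.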

Additional observations from a re-analysis of the deposited data

How the results depend on the processing

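The higher and lower counts, 1871 and 2902, moved by more than 1.5 times under several settings. Array weights gave 135 and 291, a fit of only Tadys and aged Tprog 139 and 259, and a fit of the 3 aged groups 623 and 1011. Libraries thinned to equal reads, a setting chosen after seeing the data, gave 683 and 1212. With edgeR 1574 were higher and 1757 lower, so that 47.3% of calls were higher, beside 39.2%; of the limma calls edgeR made 1488 and 1745. DESeq2 gave 2452 and 3128. Leaving out 1 library gave 399 to 2399 higher and 952 to 4902 lower peaks, with the lowest higher count without Tadys 1 and the highest lower count without Tadys 2. Equal library totals moved the median over all peaks to 0.04 and the share of higher calls to 44.9%. A replicate block gave 1273 and 1730; the replicate numbers share only a number, since deviations of same-numbered libraries correlated at -0.267 to 0.0793. Of the 100 named peaks called, 17 kept their call under every setting, none turned its direction, and 62 lost the call without Tadys 1. The cause of these changes was not tested. With 2 Tadys libraries of 8.51 and 12.1 megareads, small peaks rest on few reads in Tadys and in Tprog 1.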

Other observations

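Several genes outside the lists had called peaks at many of their sites, all in 1 direction. They were chosen after their values were seen and are given as values. Sik1, a salt-inducible kinase, had 6 higher of 22, and its best peak held 1619 and 1534 in Tadys and 892, 870 and 947 in aged Tprog, a difference of 0.80 ± 0.15 (SE, limma adjusted p = 0.00312). The call held again without Tadys 1 and without Tadys 2. Litaf had 4 higher peaks of 15 and Irf8, an interferon regulatory factor, 4 of 23, the best with 192 and 92.7 in Tadys and 19.2, 16.2 and 44.9 in aged Tprog, a call that did not hold without each Tadys library. At Irf8 aged Tterm held 123, 135 and 164, within the range of the Tadys values.

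In the other direction, Emb, the cell surface protein embigin, had 9 lower and 0 higher peaks of 22. The best held 230.4 and 244.6 in Tadys and 607, 547 and 447 in aged Tprog, a difference of -1.15 ± 0.21 (SE, limma adjusted p = 0.00210), and the call held without either Tadys library. The transcription factor genes Etv6 and Elf1 had 8 lower peaks of 41 and 6 of 17, and Cblb, a ubiquitin ligase that restrains T cell activation, 7 of 47. The Elf1 peak of lowest adjusted p lay below both other subsets, with 48.1 and 76.0 in Tadys, 158, 160.2 and 145 in Tprog and 151, 164 and 134 in Tterm. None of the called peaks of Etv6, Elf1 or Cblb was called again both without Tadys 1 and without Tadys 2.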
